A study of Mus musculus with 3 samples.

Results

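The genes described here encode 36 potassium channel subunits of sensory neurons, chosen by symbol from a fixed list, out of 30142 genes that the arrays name. All 36 were found, and each had 1 probe set, so no choice between probe sets was needed. The list holds pore-forming and auxiliary subunits and leaves out Kcnj10, an inward rectifier of glia. RNA came from primary dorsal root ganglion neurons of male ICR mice aged 8 to 10 weeks, an outbred strain, kept for 72 hours in DMEM with B27. One array was made from cells in this control medium, 1 from cells given recombinant SEMA3E at 1 µg/ml, and 1 from cells given the same SEMA3E with SEMA3E-blocking IgG at 1 µg/ml. No group carries a genetic change, no array had an IgG without SEMA3E, and the labels do not say how many mice each array stands for. With 1 array per medium there is no replicate error and no test, so every difference below is between 2 arrays and the number of arrays limits its precision.

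Potassium channels let potassium leave the cell and so set the resting potential, repolarise the action potential and limit repetitive firing. Sensory neurons combine several families: voltage-gated Kv channels, built of pore subunits with cytosolic or membrane partners, two-pore-domain (K2P) leak channels, and channels opened by calcium or sodium. Many of these genes are known to be expressed less in the ganglion after nerve injury, and SEMA3E is a secreted axon guidance cue whose receptor is plexin D1.

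Most potassium channel genes held the same value in the 3 media. In 33 of the 36 genes the deposited value was identical in all 3 arrays. Among those above background it was identical in 28 of 31 (90.3%), and 74.9% of all genes above background were. The other 3 were Kcna1, Kcnc4 and Kcnk1, and the largest difference was −4.96%, for Kcna1 in the arrays with SEMA3E against control. Values are probe set intensities on a linear scale, and log2 values are log2(intensity + 1). A probe set was called above background when its mean log2 value reached 5.48 (43.7 units), the 95th percentile of 492 vomeronasal receptor genes, which are taken as unexpressed here. By this floor 17653 genes were above background, among them 31 of the 36 subunits. Levels of different probe sets also depend on their probes, so the values below place each gene against the floor and are not compared between genes.

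**Figure D1:**
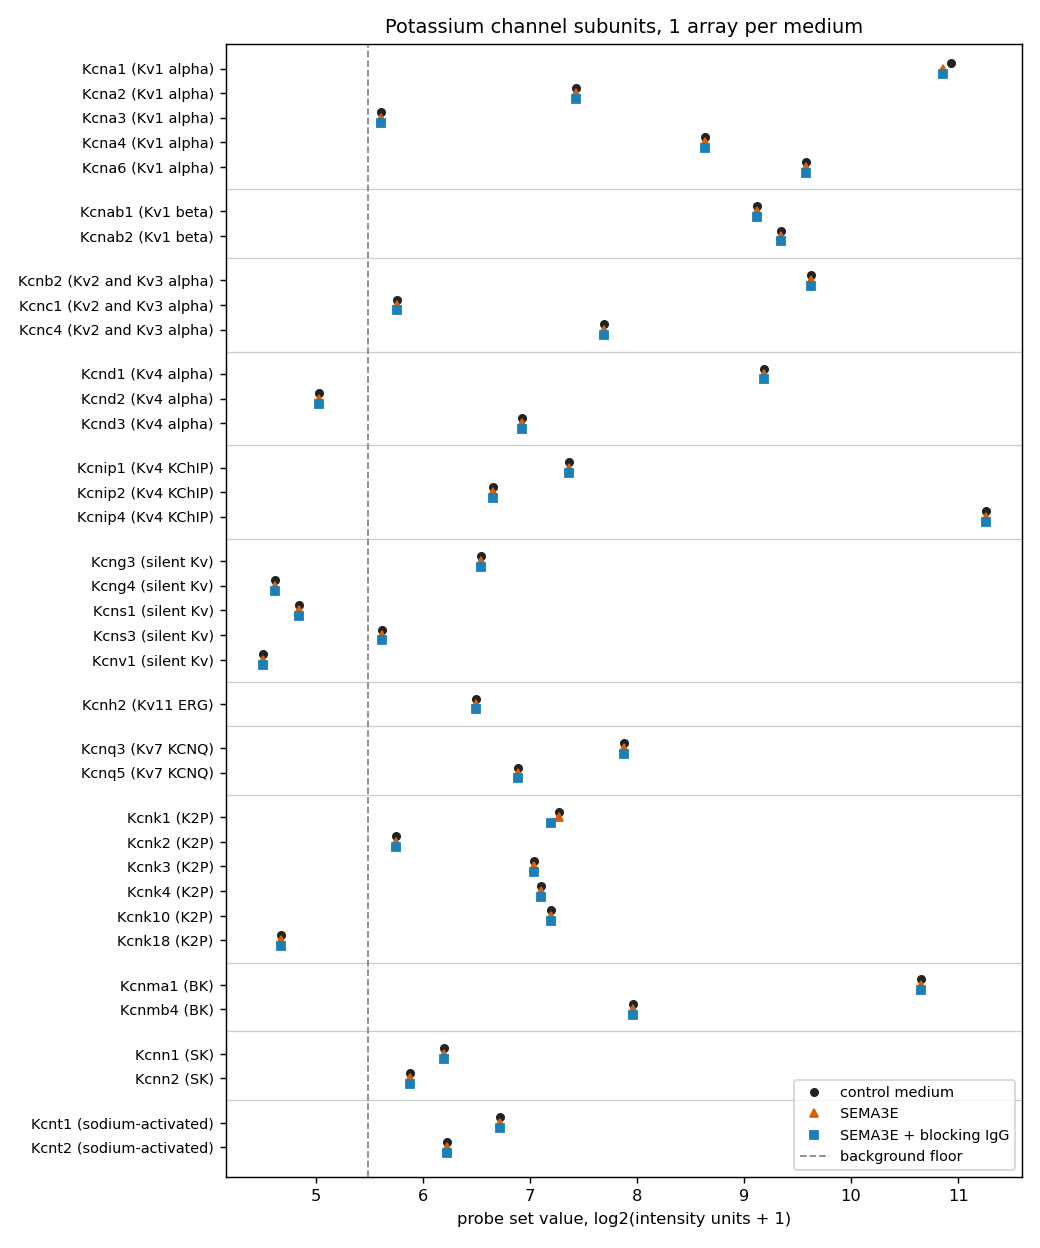
The horizontal axis gives each probe set's value in log2(intensity units + 1), the rows are the 36 genes grouped by family, and the 3 symbols of a row are the 3 media, with 1 array each. The symbols of a row stand one below the other except in Kcna1, where control medium lies to the right, and Kcnk1, where SEMA3E with blocking IgG lies to the left. The difference in Kcnc4 is too small to see, and 5 genes lie left of the dashed floor at 5.48.

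The Kv1 family gives low-threshold currents that act as a brake on firing, and Kcna1 was the one of its 5 pore subunits that differed. Kcna1, which is clustered beside nodes of Ranvier in myelinated axons, had 1951 units in control medium, 1854 with SEMA3E and 1854 with SEMA3E and blocking IgG. The control array was thus the high one, and both arrays with SEMA3E held one and the same value. On the log2 scale the difference from control was −0.07 in each. Kcna2, the usual partner of Kcna1 in axons, had 172 units in all 3 arrays. Kcna4, which carries a fast-inactivating A-type current, had 396 units and Kcna6 had 764 units, again the same in each. Kcna3, better known from lymphocytes and myeloid cells, lay just above the floor at 47.9 units. In the RefSeq gene order (GRCm38.p6) Kcna1 lies between Kcna5 and Kcna6, and Kcna3 next to Kcna2. Its neighbours Kcna5 (122 units) and Kcna6 held identical values in the 3 arrays, so within this gene cluster the difference was in Kcna1 alone.

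The 2 cytosolic beta subunit genes of Kv1 channels lay above the floor and were identical in all 3 arrays. Kcnab1, which speeds inactivation of the pore subunits, had 557 units. Kcnab2, which helps Kv1 channels to reach the axon, had 650 units.

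Among the Kv2 and Kv3 genes, which repolarise the action potential, Kcnc4 showed a very small difference. Kcnc4, whose channel inactivates quickly and shapes the spike width of nociceptors, had 206.4 units in control medium and 205.9 units in both arrays with SEMA3E. That is a change of −0.27%, or −0.0039 on the log2 scale. Kcnb2, a delayed rectifier, had 787 units and Kcnc1, a channel of fast-spiking neurons, 53.2 units, near the floor, in every array.

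Kv4 channels carry the A-type current that opens below the firing threshold, and their pore genes and KChIP partners were identical in all 3 arrays. Kcnd1 had 582 units and Kcnd3 had 121 units. Kcnd2 had 31.7 units, below the floor. KChIPs are calcium-binding proteins that bring Kv4 channels to the surface and slow their inactivation. Kcnip4 had 2456 units, Kcnip1 164 units and Kcnip2 99.7 units in each array.

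Silent Kv subunits form no channel alone and modify Kv2 channels when they join them. Of 5 genes, 2 lay above the floor: Kcng3 with 92.2 units and Kcns3 with 48.0 units, the latter close to it. Kcng4 (23.5 units), Kcns1 (27.7 units) and Kcnv1 (21.7 units) were below it, so their identical values say nothing of how the media compare. Kcns1 is known from large myelinated sensory neurons.

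The M-current and ERG genes, whose channels activate slowly and hold the cell near rest, were identical in the 3 media. Kcnq3, which pairs with other KCNQ subunits, had 235 units and Kcnq5 had 118 units. Kcnh2, which encodes the ERG channel, had 89.5 units.

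K2P channels carry the leak current that sets the resting potential, and Kcnk1 was the one of 6 that differed. Kcnk1, which encodes a weakly conducting K2P channel, had 153 units in control medium, 153 units with SEMA3E and 146 units with SEMA3E and blocking IgG. The array with IgG was the low one, at −4.71% or a log2 difference of −0.07 from each of the others, and the SEMA3E array equalled control. Kcnk2 (52.9 units), Kcnk4 (136 units) and Kcnk10 (146 units), whose channels respond to membrane stretch and temperature, were identical in all 3 arrays. So was Kcnk3, an acid-sensitive leak channel, with 130.3 units. Kcnk18, a leak channel of nociceptors, had 24.6 units and lay below the floor.

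Channels opened by calcium or sodium were identical in all 3 arrays, and all 6 genes lay above the floor. Kcnma1, the pore of the large-conductance BK channel, which shortens the action potential, had 1605 units, and its neuronal beta subunit gene Kcnmb4 had 249 units. The small-conductance SK channel genes Kcnn1 and Kcnn2, which shape the after-hyperpolarisation, had 72.2 and 57.7 units. The sodium-activated channel genes Kcnt1 and Kcnt2, which follow sodium entry during firing, had 105 and 73.6 units.

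The first comparison, SEMA3E against control, asked which transcripts of the cultures differ after exposure to SEMA3E. A member was counted when it differed by at least 0.02 on the log2 scale, which is 1.40%. By this rule 1 of the 36 subunits was lower with SEMA3E (Kcna1) and 0 were higher. That is 1 of the 31 above the floor, while 9.68% of all 17653 genes above the floor were lower and 5.06% higher. Counting any difference, 2 of 31 subunits above the floor were lower (Kcna1 and Kcnc4) against 12.3% of all genes, and 0 were higher against 6.21%. The remaining 29 of the 31 held equal values in both, against 81.4% of all genes. The median difference was 0 for the 31 subunits and 0 for all genes. Among the 3277 genes with any difference, 58.5% had a smaller one than Kcna1, and the median size was 0.06.

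SEMA3E with blocking IgG was set against SEMA3E alone to ask what the antibody alters when SEMA3E is present. Kcnk1 was lower by at least 0.02, 1 of the 31 subunits above the floor, and 0 were higher, while 8.4% of all genes were lower and 8.28% higher. Counting any difference, 10.3% of all genes were lower and 10.2% higher. The other 30 subunits above the floor were identical, as were 79.5% of all genes, and both medians were 0. Among the 3617 genes that differed, 53.4% differed by less than Kcnk1.

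SEMA3E with blocking IgG was also set against control, to ask which differences remained with the antibody. It shares an array with each of the other comparisons and adds no separate evidence. Kcna1 and Kcnk1 were lower, 2 of the 31 subunits above the floor, and 0 were higher, while 9.06% of all genes were lower and 6.19% higher. With Kcnc4, 3 of 31 showed any lower value and 0 any higher one, against 11.4% and 7.59% of all genes, and 28 were identical, against 81.0%. The median was 0 for the subunits and for all genes. At 1.1-fold 0 subunits were called in any comparison, while the share of all genes that were at least 1.1-fold lower or higher was 2.36% and 1.38% for SEMA3E against control, 2.08% and 2.67% for IgG against SEMA3E, and 2.45% and 2.11% for IgG against control.

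**Figure D2:**
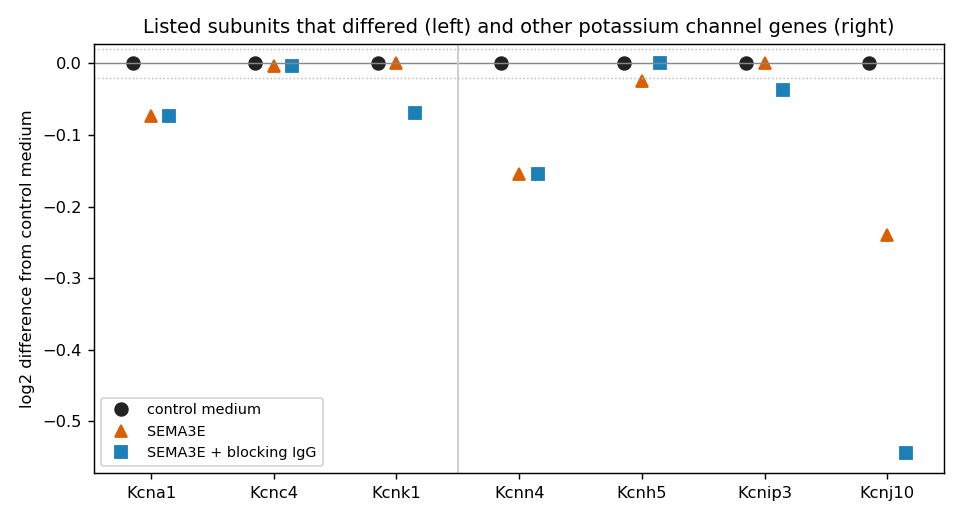
The vertical axis is the log2 difference from the control array, each symbol is 1 array, and the dotted lines mark 0.02 in each direction. The 3 listed subunits that differed stand to the left, and Kcnn4, Kcnh5, Kcnip3 and Kcnj10 to the right. Kcna1 lies at −0.07 in both arrays with SEMA3E, Kcnk1 at −0.07 in the array with IgG only, and Kcnj10 lies lowest, at −0.54.

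The 3 arrays can also be read by which of them stood apart. In 28 of the 31 subunits above the floor (90.3%) all 3 values were identical, against 74.9% of all genes. The control array stood apart in 2 (Kcna1 and Kcnc4) against 4.63% of all genes, and the array with IgG in 1 (Kcnk1) against 6.56%. In 0 subunits did SEMA3E alone stand apart with the IgG array at the control value, a pattern held by 6.14% of all genes. In 0 did all 3 arrays differ, against 7.79%. These shares were not tested against each other, and identical values do not show equal RNA, because the summary of many probes into 1 value can hide small differences.

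**Figure D3:**
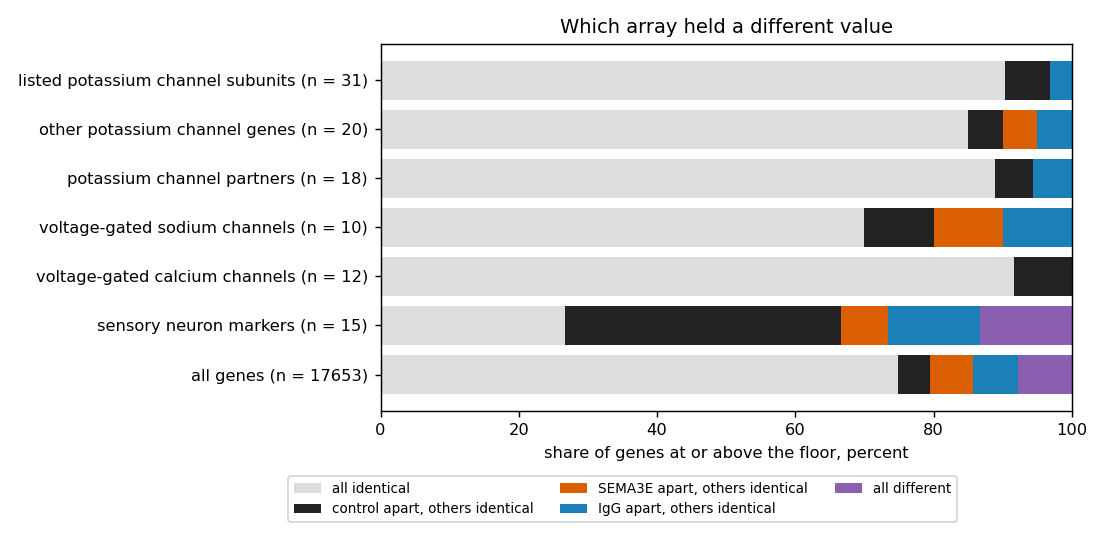
Each bar splits the genes of a list at or above the floor into those with identical values in all 3 arrays and those in which 1 array, or all, stood apart, in percent of the list. The 31 listed subunits are 90.3% identical and the 17653 genes 74.9%, while the 15 sensory neuron markers are 26.7% identical, with control apart in 40.0%. Most of these markers are bright, and in the brightest of 6 bins 50.8% of genes are identical. The 4 identical markers (Uchl1, Prph, Pou4f1 and Isl1) are among the bright ones. The dimmer Rbfox3, Nefm and Syp differ, in a bin where 83.2% of genes are identical. The part of brightness was not tested.

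Identical values were rarer among bright genes, and the listed subunits lay mostly in the dimmer part of the range. When all genes above the floor were put in 6 equal bins of mean log2 value, the share identical in all 3 arrays fell from 83.8% in the dimmest to 50.8% in the brightest. No bin reached the 90.3% of the subunits, and the part of brightness in that share was not tested. The 3 dimmest bins held 21 of the 31 subunits, of which 19 were identical. Of the 6 subunits in the fifth bin, where 69.3% of genes were identical, all were. Kcna1 and Kcnip4 were the 2 in the brightest bin, and in it 21.9% of genes were lower by at least 0.02 with SEMA3E than in control.

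**Figure D4:**
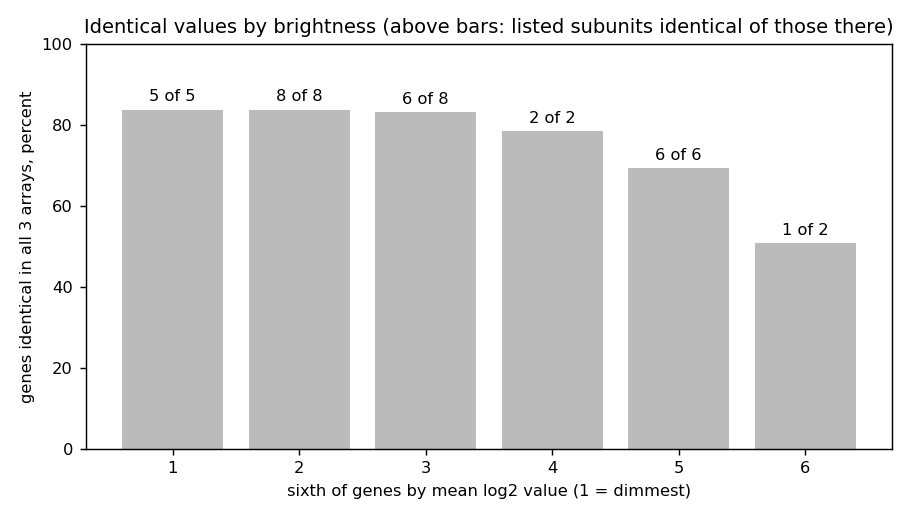
Bars give the percent of genes with identical values in all 3 arrays, for 6 equal bins of genes by mean log2 value, dimmest first. The numbers over the bars count the listed subunits that were identical and those in the bin. The bars fall from 83.8% to 50.8%, and both subunits of the third bin that were not identical are Kcnc4 and Kcnk1.

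The rest of the potassium channel family was counted in the same way. Of 51 other potassium channel genes measured, 20 lay above the floor and 17 of these were identical in all 3 arrays, and their median difference was 0 in each comparison. Kcnn4, the intermediate-conductance calcium-activated channel, had 479 units in control medium and 431 units in both arrays with SEMA3E, a log2 difference of −0.15. This is the pattern of Kcna1 with a larger size. Kcnh5, a Kv10 channel, was lower with SEMA3E alone (log2 difference −0.02) and at the control value with IgG. Kcnip3, a KChIP that also acts as a calcium-dependent repressor, was lower with IgG than in both other arrays (log2 difference −0.04). Kcnk15, below the floor, differed by −0.03 in the same direction.

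Genes of potassium channel partner proteins were listed too, and 16 of 18 above the floor were identical in all 3 arrays, with a median of 0 in each comparison. Cntnap2, the adhesion protein that clusters Kv1 channels beside the nodes, was higher with IgG by 0.05 on the log2 scale than in either other array, and Lgi1, a secreted ligand of a Kv1-associated receptor, differed by −0.01 in both arrays with SEMA3E.

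Sodium and calcium channel genes are given for comparison, without a test. Of 10 sodium channel genes above the floor 7 were identical in all 3 arrays, and Scn9a and Scn4b were lower by at least 0.02 with SEMA3E than in control (−0.03 each). With IgG Scn9a was at the control value and Scn4b was not. Of 12 calcium channel genes 11 were identical, and Cacnb4 was lower in both arrays with SEMA3E (−0.03). Medians were 0 in each comparison for both lists.

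The labelled cell type was checked against its markers, and all 15 sensory neuron markers lay above the floor. Compared with control, 7 of the 15 were lower by at least 0.02 with SEMA3E and 0 were higher. The 7 were Tubb3 (−0.15), Syp (−0.12), Avil (−0.07), Nefl (−0.06), Nefm (−0.06), Snap25 (−0.03) and Rbfox3 (−0.02). Of all genes above the floor 9.68% were lower and 5.06% higher. In the brightest bin, where most of these markers lie, 21.9% of genes were lower. The control array stood apart in 6 markers, against 4.63% of all genes. With IgG, 7 were lower than in control, among them Stmn2 (−0.07), and Map2 was higher (0.08). Of all genes 9.06% were lower and 6.19% higher in this comparison, and 21.1% of the brightest bin were lower. The summed intensity of the 15 markers differed from control by −1.37% with SEMA3E and −1.82% with IgG, and that of the 36 subunits −0.78% and −0.84%. Bright genes weigh most in such sums. The subunit sum differed through Kcna1, Kcnc4 and Kcnk1 alone. Among the markers Nefl had 92650 units in control medium, 88569 with SEMA3E and 88969 with IgG. Uchl1 (205992 units), Isl1, Pou4f1 and Prph were identical in all 3 arrays. The part of neuron content in the Kcna1 difference was not tested, and in whole cultures fewer neurons and less RNA per neuron cannot be told apart.

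Markers of neuron classes and of other cells were mostly above the floor. Among them Pmp22 of Schwann cells had 130696 units and Dcn of fibroblasts 8988 units in each array. The subunit values can therefore not be assigned to neurons alone. Differences given here are from control, as the change of the summed intensity or as log2 differences of single genes. All 8 nociceptor markers measured lay above the floor and summed to −3.78% with SEMA3E and −1.79% with IgG (Ret −0.09 and −0.05, Scn9a −0.03 with SEMA3E, Mrgprd −0.07 with IgG). Most of this change lay in Ret, the brightest of the 8, with 14354 units in control medium, 13444 with SEMA3E and 13902 with IgG. Of 6 large-diameter neuron markers all but Runx3 lay above the floor, and they summed to −2.60% and −2.49% (Pvalb −0.38 and −0.39, Ntrk3 −0.04 with SEMA3E). The 5 satellite glial markers, which include Fabp7 (0.13 with SEMA3E) and Kcnj10, lay above it and summed to 2.80% and −1.27%. Kcnj10, which takes up potassium in satellite glia, had 399 units in control medium, 337 with SEMA3E and 273 with IgG. Schwann cell markers, of which Mag lay below the floor, summed to −0.20% and −0.38% (S100b −0.06 and −0.13). Fibroblast markers summed to −0.03% in both, and endothelial markers, of which Tek lay below the floor, to −2.44% in both (Cldn5 −0.16). Of 8 macrophage markers 5 lay above the floor, and Csf1r, Itgam and C1qb did not. With SEMA3E 1 of the 5 was higher (Lyz2 0.19) and 1 lower (Cd68 −0.08), and with IgG 1 was higher (Lyz2 0.11) and 2 lower (Adgre1 and C1qa, −0.04 each). The sum of all 8 differed from control by 6.49% and 4.38%, with Lyz2 the single member higher by at least 0.02. Identical in all 3 arrays were 5 of 8 nociceptor, 3 of 6 large-diameter neuron, 3 of 5 satellite glial and 5 of 6 Schwann cell markers. The same held for 4 of 8 macrophage, 4 of 5 fibroblast and 4 of 5 endothelial markers, so each sum changed through few genes.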

How the data were processed

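Biotin-labelled RNA of cells in 3 media was hybridised to 1 array for each medium. The values are intensities on a linear scale for 65956 probe sets, as deposited by the authors, and the submitters' processing notes name Affymetrix Expression Console. Its version, the genome build and the methods of summary and normalization are stated nowhere in the sources used here. Some summary methods return equal values for arrays that differ little, and whether this occurred cannot be seen from the values.

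From these, log2(intensity + 1) was computed without further scaling. Probe sets were named by the platform annotation where it gives 1 symbol (30604 probe sets; 2146 have several and 33206 none), with symbols updated through RefSeq (GRCm38.p6), and the brightest probe set of a gene was kept. Array medians were 44.5, 45.0 and 44.5 units. All 36 subunits were named. Of the other lists, members at least 0.02 apart were counted and up to 4 named per comparison, and markers at least 0.02 apart were named. The subunits, lists and thresholds were chosen with earlier results of these data known. Protein stretches, which the naming rule called for, were not used here. Alternatives were an offset of 16, centring, quantile normalization, loess (span 0.3), means over probe sets and the floor as a filter. The counting was tested on simulated data. Python 3.11.15, numpy 2.4.6, pandas 2.3.3, statsmodels 0.14.6 and matplotlib 3.10.9 were used.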

Additional observations from a re-analysis of the deposited data

How the results depend on the processing

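The 6 counts of subunits lower or higher by at least 0.02 were recomputed under 6 alternatives. Of these 2 could not move them, since each subunit has 1 probe set and none below the floor was called. Loess also left the differences of Kcna1 and Kcnk1 at their deposited values, and centring shifted IgG against SEMA3E by 0. Equal counts in those settings are therefore no check of the result. An offset of 16 keeps equal values equal, and centring shifted no comparison by more than 0.01. Neither could therefore bring an identical subunit into a count. Only quantile normalization changed a count, and the counts of higher subunits were 0 in every setting. With all those settings included, 23 of 24 recomputed counts under the other 4 lay within 1.5 times the reported one. This share is thus no measure of stability. The exception was quantile normalization for blocking IgG with SEMA3E against SEMA3E alone, where 2 subunits were lower in place of 1. The added one was Kcnma1 (log2 difference −0.03 after quantile normalization, 0 as deposited), which also raised the count for IgG against control from 2 to 3. That rise lies within 1.5 times and so is among the 23. The differences of Kcna1 and Kcnk1 kept their direction and stayed beyond 0.02 under centring, quantile normalization, loess and the offset of 16, from −0.08 to −0.06. No scaling moved the median of all genes by more than 0.01. No paired analysis was possible because each medium has 1 array, and for the same reason no array could be left out. The number of arrays limits every value: a difference between 2 arrays has no error to be read against.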
